A study of Mus musculus with 16 samples.

Results

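The cholesterol synthesis and sterol regulation genes described here are 27 of the 55536 genes counted in 2 tissues of female mice, red gastrocnemius muscle and visceral fat. They were found as the rows whose mouse Ensembl identifiers carry the listed symbols in the GENCODE M21 annotation. The list holds 18 enzymes of the route from acetyl-CoA to cholesterol, the branch enzyme Ggps1, 4 genes that sense sterol and control the transcription factor SREBP-2, the sterol carrier Stard4 and 3 target genes of the LXR receptors. All 27 had counts in every library. Steps of the route that have no gene on the list were not analysed here.

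RNA was sequenced from 4 female mice labelled as a conditional knockout of MyD88 in muscle and from 4 female mice labelled Cre-control. MyD88 is an adaptor protein that passes on signals of Toll-like and interleukin-1 family receptors. Knockout and control mice alike ran on wheels for 5 weeks and were then kept with restricted movement in a small cage for 8 days. Red gastrocnemius, part of a calf muscle, and visceral fat came from the same animals by their subject numbers, which gives 16 libraries in 4 groups of 4. The knockout mice were 139, 958, 960 and 29, and the control mice were 131, 137, 138 and 11. The sources used here do not give the promoter that drives Cre or the age of the mice. By the label the deletion is restricted to muscle, so knockout fat is fat of a mouse with knockout muscle.

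Total counts ranged from 15203806 to 21747345 in muscle libraries and from 13242243 to 19114782 in fat libraries. Levels below are CPM, counts scaled to a common library total with TMM factors, and fold changes are on a log2 scale. Myd88 itself had 3.30, 3.04, 2.51 and 2.92 CPM in knockout muscle, against 3.32, 3.13, 5.21 and 4.47 CPM in control muscle. These groups overlapped, with a log2 fold change of -0.47 and an adjusted p of 0.949 by the quasi-likelihood test of edgeR with Benjamini-Hochberg adjustment over all genes tested. Counts summed over a whole gene do not show whether part of it is deleted, so this level does not check the deletion. The 7 adipocyte markers summed to 1.52% to 3.4% of their mean fat level in muscle libraries. The 7 muscle fibre markers summed to 0.171% to 1.91% of their mean muscle level in fat libraries. Of the myosin genes among them, Myh4 had 71466 to 107820 CPM in muscle, Myh2 3491 to 9221 CPM and Myh7 1408 to 3176 CPM. Control mouse 138 had an unusual fat library. Its 7 adipocyte markers summed to 3590 CPM, against 16500 to 18900 CPM in knockout fat and 15400 to 17700 CPM in the other 3 control fat libraries. Its 6 smooth muscle markers summed to 9920 CPM, against 260 to 538 CPM in knockout fat and 189 to 355 CPM in the other control fat. Its 6 urothelium markers summed to 1100 CPM, against 7.58 to 20.5 CPM in knockout fat and 9.74 to 13.9 CPM in the other control fat. Genotype results in fat are therefore given with and without this library.

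Cells build cholesterol from acetyl-CoA through mevalonate, farnesyl diphosphate, squalene and lanosterol. When membrane sterol is low, the escort protein SCAP carries SREBP-2 from the endoplasmic reticulum to the Golgi, where it is cut and released as a transcription factor for nearly the whole route. When sterol is high, the INSIG proteins hold SCAP back, and oxidised sterols activate the LXR receptors, which raise the efflux pumps ABCA1 and ABCG1. Adipose tissue is a large store of free cholesterol in the body.

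Promoter windows of 22 of the 27 genes were read from RefSeq on GRCm38.p6, each covering 250 bases before to 50 bases after an annotated start. Acat2, Hmgcs1, Insig1, Nsdhl and Abca1 were among them, and Fdps, Fdft1, Sqle, Stard4 and Abcg1 had no entry. The windows were searched on both strands for a sterol element core, TCACNCCAC, and for the NF-Y box, CCAAT, a site that commonly lies beside sterol elements. The sterol core was found in 1.24% of the 32851 promoter windows of all genes and, among the 22 genes, in Hmgcs1 alone. The NF-Y box was found in 37.4% of all windows, in 19 of the 28 windows of these genes and in at least 1 window of 19 of the 22 genes. The DR4 element of LXR, searched by its consensus, was found in 0.0213% of all windows and in none of the 28. A match describes letters only, and a window without one says nothing about a factor.

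The sequences of Hmgcs1, Insig1, Nsdhl and Abca1 are shown because the first carries both motifs, the next pair carry the NF-Y box and differed most between fat libraries, and Abca1 carries neither. Capitals mark the sterol core, TCACCCCAC, and the NF-Y box, which reads CCAAT or, on the other strand, ATTGG. The windows are chr13:119690101-119690400 on the plus strand for Hmgcs1, chr5:28071162-28071461 on the plus strand for Insig1, chrX:72918271-72918570 on the plus strand for Nsdhl and chr4:53159846-53160145 on the minus strand for Abca1.
Hmgcs1: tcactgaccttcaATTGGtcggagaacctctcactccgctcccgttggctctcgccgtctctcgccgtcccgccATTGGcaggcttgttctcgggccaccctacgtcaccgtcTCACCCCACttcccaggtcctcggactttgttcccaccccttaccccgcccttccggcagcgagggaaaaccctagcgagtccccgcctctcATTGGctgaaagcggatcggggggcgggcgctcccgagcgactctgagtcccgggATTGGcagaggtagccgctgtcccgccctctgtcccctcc
Insig1: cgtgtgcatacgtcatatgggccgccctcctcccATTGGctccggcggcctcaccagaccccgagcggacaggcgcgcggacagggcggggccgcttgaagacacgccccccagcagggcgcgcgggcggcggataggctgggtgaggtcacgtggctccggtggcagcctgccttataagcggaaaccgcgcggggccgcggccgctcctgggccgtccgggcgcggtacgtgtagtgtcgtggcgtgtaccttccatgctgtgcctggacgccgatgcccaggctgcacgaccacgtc
Nsdhl: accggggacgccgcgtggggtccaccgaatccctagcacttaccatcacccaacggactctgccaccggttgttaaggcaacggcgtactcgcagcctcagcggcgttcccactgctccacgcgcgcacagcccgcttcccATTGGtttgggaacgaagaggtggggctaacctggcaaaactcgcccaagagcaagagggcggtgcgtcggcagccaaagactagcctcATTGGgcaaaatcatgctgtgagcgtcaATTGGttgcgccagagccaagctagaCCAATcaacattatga
Abca1: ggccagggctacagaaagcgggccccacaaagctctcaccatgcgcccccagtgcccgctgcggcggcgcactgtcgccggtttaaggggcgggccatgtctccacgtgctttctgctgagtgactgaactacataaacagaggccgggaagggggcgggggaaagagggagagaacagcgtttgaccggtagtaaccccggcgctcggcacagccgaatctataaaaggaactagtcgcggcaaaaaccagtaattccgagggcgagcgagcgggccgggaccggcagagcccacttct
In Hmgcs1 the sterol core began 137 bases upstream of the start, with NF-Y boxes 237, 176 and 45 bases upstream and 1 more downstream, none of which overlapped it. Insig1 had 1 NF-Y box, 216 bases upstream, and Nsdhl had 4, at 109 and 20 bases upstream and at 8 and 34 bases downstream.

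The comparison of tissues asked at what level each step of the route is transcribed in red gastrocnemius and in visceral fat. Muscle held less RNA than fat for 22 of the 27 genes and more for 3, while Hsd17b7 and Ggps1 passed in neither direction. Over all 17084 genes tested with edgeR, 44% were lower and 35.7% higher in muscle at an adjusted p under 0.05. Log2 fold changes, muscle over fat, lay below 0 for 23 of the 27 genes and 55.1% of all genes. Their median was -1.68 over the 27 genes and -0.157 over all genes tested. In 18 of the 27 every muscle library lay below every fat library, as in 26.9% of all genes tested. In 2 of them every muscle library lay above every fat library, as in 25.2% of all genes. In bulk tissue, fewer cells of a type and less RNA per cell cannot be told apart.

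**Figure D1:**
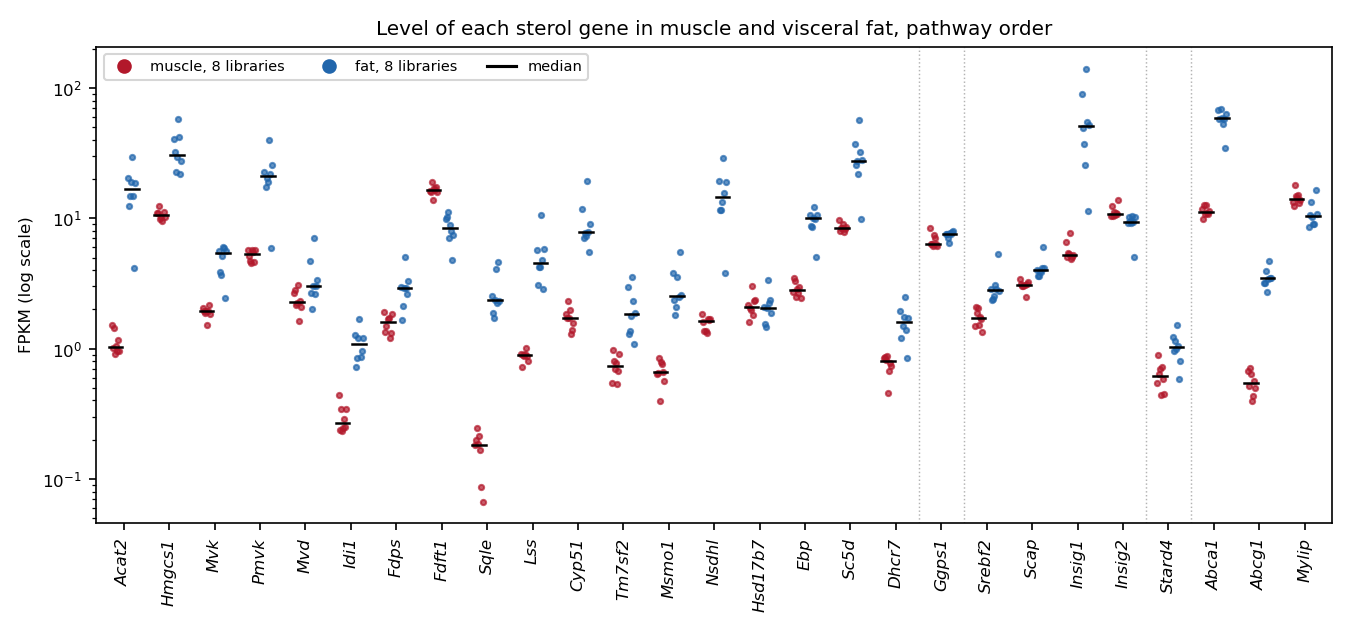
FPKM (CPM per kilobase of merged exon length, log scale) of the 27 genes in pathway order, with 8 muscle libraries left of 8 fat libraries for each gene and black lines for medians. Fdft1 is the one enzyme whose muscle libraries all lie above fat, and Sqle has the lowest muscle median at 0.183 FPKM.

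The enzymes that make mevalonate and turn it into farnesyl diphosphate were lower in muscle. Acat2, the thiolase that joins acetyl-CoA units at the start of the route, had 2.31, 2.62 and 3.85 CPM in muscle as lowest, median and highest of 8 libraries, and 10.6, 42.5 and 75.2 CPM in fat. It fell in muscle by 3.90 on the log2 scale (SE 0.325), a 14.9-fold difference, with an edgeR adjusted p of 2.33e-08. Of the 51-base stretches of Acat2 exons, 38.9% also occur in its paralog Acat3, which averaged 0.00850 CPM in muscle and 0.548 CPM in fat. Reads that the counting could have split between them make the level of Acat2 uncertain. Hmgcs1, the cytosolic HMG-CoA synthase, had 43.8, 48.8 and 56.6 CPM in muscle and 101, 141 and 265 CPM in fat. Its log2 fold change was -1.68 (SE 0.173), and no muscle library reached the lowest fat library.

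Mevalonate kinase, Mvk, had 4.07, 5.17 and 5.77 CPM in muscle and 6.59, 14.4 and 16 CPM in fat. The next kinase, Pmvk, had 7.82, 9.12 and 9.86 CPM in muscle and 10.1, 36.2 and 68.2 CPM in fat. Both were lower in muscle without overlap, with log2 fold changes of -1.32 and -2.05. Mvd, the decarboxylase that follows, overlapped between tissues at 3.05, 4.24 and 5.67 CPM in muscle and 3.71, 5.62 and 13.1 CPM in fat. Muscle over fat, its log2 fold change of -0.57 passed at an edgeR adjusted p of 0.0283 and did not pass with limma voom (0.0781) or without mouse 131, 11, 139 or 29 (adjusted p of 0.0662, 0.0502, 0.0878 and 0.0665). Idi1, the isomerase that makes both building blocks of isoprenoids available, was low in both tissues, at 0.816, 0.949 and 1.56 CPM in muscle and 2.55, 3.79 and 5.89 CPM in fat. Farnesyl diphosphate synthase, Fdps, had 5.08, 6.68 and 7.97 CPM in muscle and 7.02, 12.3 and 21.4 CPM in fat. Both fell in muscle, with log2 fold changes of -1.87 for Idi1 and -0.90 for Fdps. Exons of Fdps share 23.4% of their 51-base stretches with Gm43738 on the same strand, and those of Idi1 share 17.6% with Gm13502. The levels of Fdps and Idi1 are uncertain to that extent, although neither partner had a mean above 0.0215 CPM in either tissue.

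Farnesyl diphosphate is the branch point of the route, and Fdft1, squalene synthase, commits it to sterols. Fdft1 had 58.5, 69.4 and 79.6 CPM in muscle and 20.1, 35.6 and 47.2 CPM in fat. It was the single enzyme called higher in muscle, by 0.98 on the log2 scale (SE 0.120, edgeR adjusted p 1.69e-06), and all muscle libraries lay above all fat libraries. The 774 exon bases of Fdft1 at chr14:63145150-63179578 that overlap Ctsb on the opposite strand make this level uncertain, because the sources used here do not say whether reads were counted by strand. Ctsb averaged 255 CPM in muscle and 857 CPM in fat, so it was lower in muscle (log2 fold change -1.75). The other branch from farnesyl diphosphate runs through Ggps1, which makes the lipid anchor of many small GTPases. Ggps1 had 28.8, 30.0 and 40.0 CPM in muscle and 30.3, 36.0 and 37.7 CPM in fat, and its log2 fold change of -0.14 (SE 0.0726, edgeR adjusted p 0.085) did not pass. Without mouse 139 it was -0.19, with an edgeR adjusted p of 0.0118.

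Squalene epoxidase, Sqle, is the enzyme after squalene and a rate-limiting step of the sterol part of the route. Sqle (chr15:59315077-59331192) had 0.372, 1.01 and 1.37 CPM in muscle and 9.53, 13 and 25.6 CPM in fat. Its log2 fold change was -4.01 (SE 0.226, edgeR adjusted p 1.71e-10), with muscle and fat libraries far apart. Sqle and Acat2 had the largest tissue differences of the 27 genes, in an order that turned without mouse 138, at -3.83 for Sqle and -4.1 for Acat2. Squalene synthase and squalene epoxidase, neighbours in the route, differed between the tissues in opposite directions, although with total counts in place of TMM factors Fdft1 was lower in muscle as well. Lss, which closes squalene epoxide to lanosterol, had 7.74, 9.58 and 10.8 CPM in muscle and 31.1, 48.8 and 114 CPM in fat, a log2 fold change of -2.54.

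The enzymes that turn lanosterol into cholesterol were lower in muscle in 7 of 8 cases. Cyp51, the lanosterol demethylase, had 5.76, 7.54 and 10.3 CPM in muscle and 24.3, 34.4 and 84.5 CPM in fat. The sterol reductase gene Tm7sf2 had 2.37, 3.24 and 4.29 CPM in muscle and 4.80, 8.06 and 15.6 CPM in fat. Their log2 fold changes were -2.45 and -1.45, both without overlap. Tm7sf2 shares 532 exon bases with Vps51 on the same strand, which makes its level uncertain. Msmo1, Nsdhl and Hsd17b7 encode the oxidase, dehydrogenase and ketoreductase that together strip methyl groups from the sterol ring, and they differed from each other. Msmo1 had 2.45, 4.05 and 5.16 CPM in muscle and 11.1, 15.5 and 33.7 CPM in fat. Nsdhl had 3.75, 4.65 and 5.22 CPM in muscle and 10.8, 41.4 and 82.4 CPM in fat. Hsd17b7 had 8.23, 10.7 and 15.5 CPM in muscle and 7.46, 10.5 and 17.0 CPM in fat. Nsdhl was 9.79-fold lower in muscle (log2 fold change -3.29, edgeR adjusted p 1.17e-07) and Msmo1 fell by 2.17 on the log2 scale. Hsd17b7 stood at nearly equal levels, with a log2 fold change of 0.04 (SE 0.135) and an edgeR adjusted p of 0.788.

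The last steps are the sterol isomerase Ebp, the desaturase Sc5d and the reductase Dhcr7, which can finish cholesterol. Ebp had 5.67, 6.48 and 8.02 CPM in muscle and 11.8, 23 and 28.0 CPM in fat. Sc5d, at 38.1, 40.9 and 47.2 CPM in muscle and 48.2, 135 and 274 CPM in fat, was among the more abundant enzymes in both tissues. Dhcr7 overlapped between tissues, at 2.68, 4.64 and 5.10 CPM in muscle and 4.96, 9.27 and 14.5 CPM in fat. All of them fell in muscle, with log2 fold changes of -1.72, -1.80 and -1.09 in that order.

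Among the genes that sense sterol, Insig1 stood apart from Srebf2, Scap and Insig2, whose log2 differences between tissues were below 1 in size. Srebf2, which encodes SREBP-2 (chr15:82147181-82205379), had 9.58, 12.3 and 14.9 CPM in muscle and 17.0, 20.2 and 38.3 CPM in fat. Its log2 fold change was -0.80 (SE 0.132, edgeR adjusted p 4.25e-05). Scap, the escort, had 18.5, 23.1 and 25.6 CPM in muscle and 26.8, 29.7 and 44.6 CPM in fat, a log2 fold change of -0.44. Both were lower in muscle without overlap. Exons of Scap overlap 985 bases of 5830462I19Rik on the opposite strand, so its level is uncertain. Exons of Hmgcs1, Lss, Cyp51 and Ggps1 overlap another gene on the opposite strand by 557, 381, 166 and 257 bases, and their levels are uncertain too. The partner of Cyp51, Akap9, averaged 356 CPM in muscle and 153 CPM in fat, far above Cyp51. Arid4b, the partner of Ggps1, averaged 52.7 CPM in muscle and 53.9 CPM in fat. Partners of Scap, Hmgcs1 and Lss had no mean above 0.0111 CPM in either tissue.

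The retention proteins went in opposite directions. Insig1, whose transcription SREBP-2 itself drives (chr5:28071363-28078662), had 15.1, 16.3 and 23.9 CPM in muscle and 35.1, 157 and 435 CPM in fat. It was 10.1-fold lower in muscle, with a log2 fold change of -3.34 (SE 0.404, edgeR adjusted p 1.73e-06). Insig2, the form known for weaker dependence on SREBP-2, had 36.0, 37.7 and 48.2 CPM in muscle and 17.5, 32.8 and 35.9 CPM in fat. It was higher in muscle by 0.31 on the log2 scale (SE 0.122, edgeR adjusted p 0.0275), and the tissues did not overlap. That call did not pass without mouse 139, 958 or 29 (edgeR adjusted p of 0.0542, 0.0614 and 0.0668). Per kilobase of exon, Insig1 had a median of 5.27 FPKM and Insig2 one of 10.9 FPKM in muscle. In fat the medians were 50.8 FPKM for Insig1 and 9.44 FPKM for Insig2, the reverse order.

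Stard4, which carries sterol through the cytosol between membranes, was low in both tissues at 2.46, 3.43 and 4.98 CPM in muscle and 3.25, 5.72 and 8.46 CPM in fat. Muscle over fat, its log2 fold change was -0.73 (edgeR adjusted p 0.00181), and the tissues overlapped. Abca1, the pump that loads cholesterol onto lipid-poor apolipoprotein (chr4:53030787-53159895), had 103, 115 and 132 CPM in muscle and 361, 606 and 710 CPM in fat. Abcg1, the pump that passes cholesterol to mature lipoprotein particles, had 2.89, 3.95 and 5.16 CPM in muscle and 19.9, 25.2 and 34.1 CPM in fat. Abca1 was 5.07-fold and Abcg1 6.39-fold lower in muscle, with log2 fold changes of -2.34 (SE 0.116) and -2.68 (SE 0.110). Both pumps are also expressed by macrophages, whose 7 markers summed to 74.8 to 154 CPM in muscle libraries and 317 to 627 CPM in fat libraries. The part of macrophage RNA in this result was not tested. Mylip, a ubiquitin ligase that marks lipoprotein receptors for degradation, had 40.1, 45.5 and 58.1 CPM in muscle and 27.8, 33.7 and 52.9 CPM in fat. It was higher in muscle by 0.38 on the log2 scale (SE 0.129, edgeR adjusted p 0.0131), although the tissues overlapped, and it did not pass with upper-quartile scaling (adjusted p 0.0604).

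The 3 calls in favour of muscle depended on the scaling between tissues. With total counts in place of TMM factors, the median log2 fold change of all genes moved to -1.36 and that of the 27 genes to -2.86. Under that scaling all 27 were lower in muscle, Fdft1 at -0.20, Insig2 at -0.87 and Mylip at -0.85. Calls over all genes then were 1899 higher and 13650 lower, against 6092 and 7514 with TMM. Another scaling moves all genes by nearly the same amount, and setting genes against the median of all genes takes that out. So 22 of the 27 lay below that median and 5 above under each of TMM, upper-quartile, RLE and total-count scaling. This sameness is no check of the calls. The distance between the median of the 27 and that of all genes was -1.52 with TMM and -1.5 with total counts.

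Ordered per kilobase of exon, the highest medians in muscle were 16.4 FPKM for Fdft1, 14.1 FPKM for Mylip and 11.1 FPKM for Abca1. The lowest in muscle were 0.271 FPKM for Idi1 and 0.183 FPKM for Sqle. In fat the order began with 58.5 FPKM for Abca1, 50.8 FPKM for Insig1 and 30.8 FPKM for Hmgcs1. It ended with 1.08 FPKM for Idi1 and 1.02 FPKM for Stard4. Most steps of either order were smaller than the spread between libraries. Of 26 neighbouring pairs, the ranges overlapped in 24 in muscle and in 25 in fat, the exceptions being Ggps1 over Pmvk and Insig1 over Scap in muscle and Ggps1 over Mvk in fat.

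**Figure D2:**
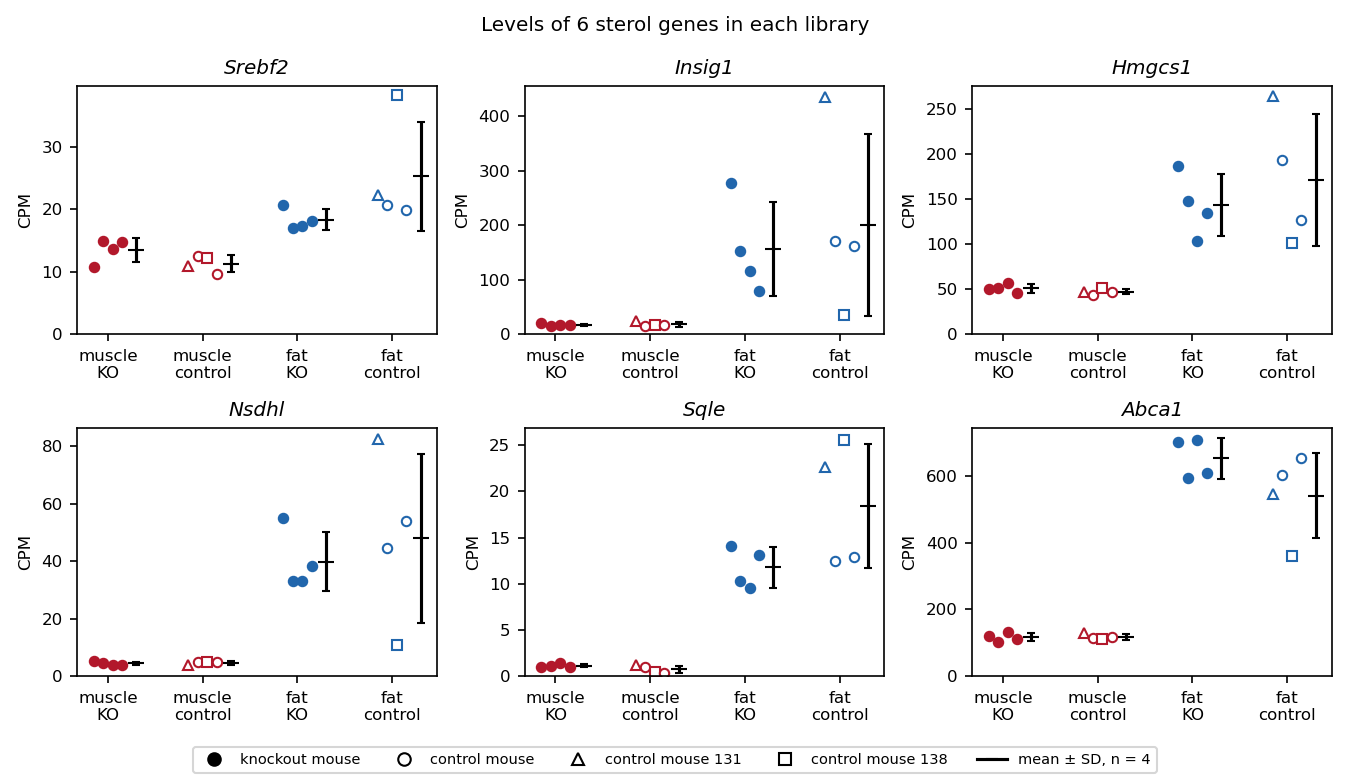
CPM of Srebf2, Insig1, Hmgcs1, Nsdhl, Sqle and Abca1 in each library, with knockout mice as filled circles, control mice as open symbols, and black bars for mean ± SD of 4 mice. In fat, control mouse 131 has the highest Insig1, Hmgcs1 and Nsdhl, at 435, 265 and 82.4 CPM, while control mouse 138 has the lowest Insig1 and Nsdhl and the highest Sqle and Srebf2.

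Within fat the enzymes varied together from mouse to mouse, across the genotypes. Over the 8 fat libraries the highest value of a gene was 2.61 times the lowest in the median of the 27 genes, and 2.28 times without mouse 138. Over the 8 muscle libraries it was 1.55 times. Control mouse 131 had the highest fat level of 18 of the 27 genes and of 15 of the 18 enzymes, where it was highest for 13.3% of all 16323 genes tested. Its enzymes lay a median of 0.94 above the mean of the other fat libraries on the log2 scale, with 18 of 18 above. Lss at 1.30, Cyp51 at 1.27 and Nsdhl at 1.24 were the farthest above among the enzymes.

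Knockout mouse 139 came next, with 17 of 18 enzymes above the mean of the others and a median of 0.34. Knockout mice 958 and 960 lay below it, with medians of -0.32 and -0.29 and 1 and 3 of 18 enzymes above. Mice 29, 137 and 11 lay close to it, with medians of -0.06, 0.04 and 0.11. So the highest and the next highest of the 8 fat libraries belonged to different genotypes. Muscle of the same mice showed smaller differences, with a median of 0.13 for mouse 139 and 0.09 for mouse 131. Muscle libraries of these mice also had the highest adipocyte marker sums, 531 CPM in mouse 139 and 373 CPM in mouse 131. The other muscle libraries had 237 to 343 CPM, and the part of fat RNA in these medians was not tested. The highest muscle median was 0.15, in knockout mouse 960, whose fat lay below the others. That muscle library also had a sum of 388 CPM for 7 markers of myelinating Schwann cells, against 66.4 to 132 CPM in the other muscle libraries, and their part in its enzyme levels was not tested.

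**Figure D3:**
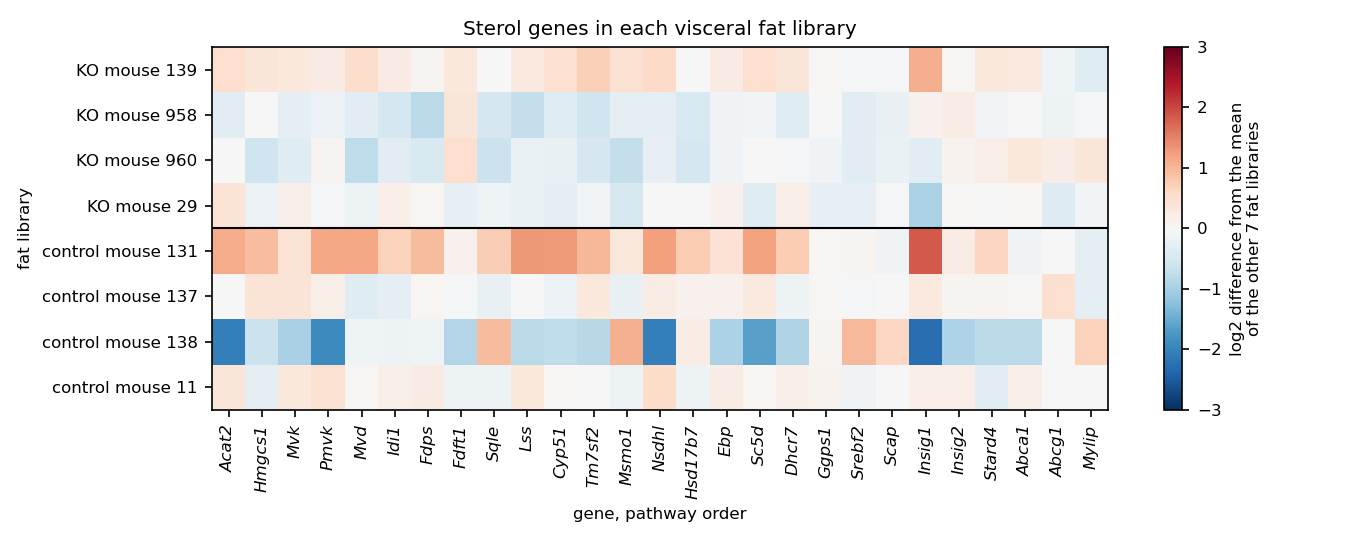
Log2 difference of each fat library from the mean of the other 7 fat libraries for the 27 genes in pathway order, knockout mice above the black line and control mice below it. Control mouse 131 is red for nearly all enzymes and Insig1 (1.84), and control mouse 138 is blue for most of them and red for Sqle, Msmo1, Srebf2, Scap and Mylip.

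Insig1 had the widest range. It had 278, 153, 116 and 79.6 CPM in knockout fat, against 435, 171, 35.1 and 161 CPM in control fat. The highest control was 12.4 times the lowest control, and without mouse 138 the highest of the 7 remaining fat libraries was 5.47 times the lowest. The fatty acid and acetyl-CoA genes of the SREBP programme, a list of 14, lay a median of 1.01 above the other fat libraries in mouse 131. It lay at 0.32 in mouse 139 and -2.51 in mouse 138, where the enzymes lay at -0.83. In knockout mouse 960 it lay at 0.41 while the enzymes were below the others, and in control mouse 11 at 0.37. Adipocyte markers lay at -2.65 in mouse 138. That library is part of the mean that each other fat library is set against. The 7 other libraries all lay above 0, from 0.28 in mouse 131 to 0.45 in control mouse 137, with mouse 139 at 0.39. By these medians mouse 131 was the lowest of these 7 for adipocyte markers and the highest for the enzymes. Single markers differed from each other. In mouse 131 Adipoq, Plin1 and Cfd were lowest of the 7, Lep and Fabp4 were next to highest, and Cidec and Retn lay between. Values of the fatty acid and acetyl-CoA list are set against a mean that holds mouse 138 too. Marker sums of mouse 131 were 15400 CPM for adipocytes, 555 CPM for macrophages and 53.3 CPM for cell division, the last being the highest of the 8 fat libraries. The part of these cell types in the level of the enzymes was not tested.

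The fat library of control mouse 138 lay below all other fat libraries for 16 of the 27 genes and above all for 5. For all genes tested these shares were 34.1% and 31.3%. Insig1 at 35.1 CPM, Nsdhl at 10.8 CPM, Acat2 at 10.6 CPM and Pmvk at 10.1 CPM were the farthest below the other 3 control fat libraries, whose means were 255, 60.3, 53.4 and 49.8 CPM. The 5 genes above all other libraries were Sqle at 25.6, Msmo1 at 33.7, Srebf2 at 38.3, Scap at 44.6 and Mylip at 52.9 CPM. The adipocyte, smooth muscle and urothelium sums given for this library at the start moved with these levels, and their part in them was not tested. The markers of steroid-producing cells, 8 genes of ovary and adrenal, summed to at most 9.76 CPM in any fat library.

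The genotype comparison in muscle asked whether sterol genes change in the tissue that carries the deletion. None of the 27 was called by edgeR, where over the 14183 genes tested 0% were called higher and 0.0141% lower. Adjusted p-values ranged from 0.949 to 0.997, and neither DESeq2 nor limma voom called any. At an unadjusted p under 0.05 there was 1 gene, Abcg1, where 5.04% of all genes passed that mark. The median log2 fold change, knockout over control, was 0.07 over the 27 genes, with 18 above 0 and 9 below, where 49.2% of all genes lay below, and 0.00 over all genes tested. Without control mouse 137 the median of the 27 was -0.00175.

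Abcg1 had 4.95, 3.80, 5.16 and 4.69 CPM in knockout muscle, against 2.89, 3.13, 4.09 and 3.63 CPM in control muscle. The groups overlapped by 1 knockout library, 3 knockout libraries lay above all controls, and the exact two-sided permutation p was 0.0571. Its log2 fold change was 0.42 (SE 0.174, edgeR unadjusted p 0.0303, adjusted p 0.949). All 7 macrophage markers also had a positive log2 fold change in muscle, with sums of 113 to 154 CPM in knockout and 74.8 to 115 CPM in control libraries, and their part in the level of Abcg1 was not tested. Dhcr7 was the 1 gene of the 27 whose knockout libraries all lay above the controls, as in 1.86% of all genes tested, and none had them all below, as 1.26% had. It had 4.95, 4.98, 4.78 and 5.10 CPM in knockout muscle, against 2.68, 3.89, 4.49 and 4.28 CPM in control muscle. With a log2 fold change of 0.35 (SE 0.172) and an edgeR adjusted p of 0.949 it did not pass, and its exact permutation p of 0.0286 is the smallest that 70 assignments of 4 against 4 mice can give.

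Srebf2 had 10.7, 14.9, 13.6 and 14.7 CPM in knockout muscle, against 10.8, 12.5, 12.1 and 9.58 CPM in control muscle, where 3 knockout libraries lay above all controls and 1 among them. Knockout over control, its log2 fold change was 0.25 (SE 0.134). Hsd17b7 pointed the other way, with 11.0, 8.23, 10.5 and 10.1 CPM in knockout muscle, against 15.5, 9.23, 11.8 and 12.1 CPM in control muscle. Its groups overlapped, and its log2 fold change was -0.29 (SE 0.148). Insig1 and Abca1 differed by less than their spread. Insig1 had 20.2, 15.6, 16.8 and 16.5 CPM in knockout muscle (17.3 ± 2.03, SD, n = 4), against 23.9, 15.1, 15.7 and 16.1 CPM in control muscle (17.7 ± 4.14, SD, n = 4). Abca1 had 121, 103, 132 and 112 CPM in knockout muscle (117 ± 12.3, SD, n = 4), against 130, 113, 111 and 118 CPM in control muscle (118 ± 8.63, SD, n = 4). Among the remaining genes log2 fold changes ran from -0.14 for Msmo1 to 0.62 for Sqle, which had 1.12 ± 0.167 CPM in knockout and 0.740 ± 0.379 CPM in control muscle (SD, n = 4 each).

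**Figure D4:**
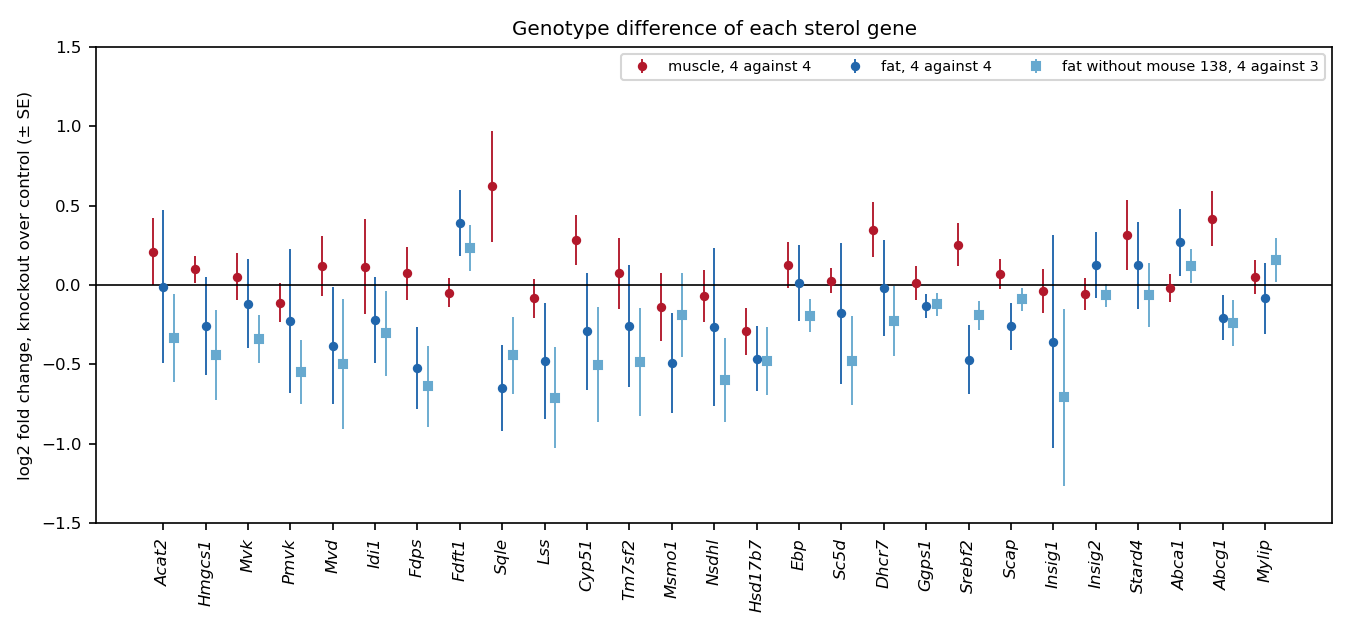
Log2 fold change of each gene, knockout over control, ± SE from edgeR, for muscle (red circles), fat (dark blue circles) and fat without control mouse 138 (light blue squares). No gene passed an adjusted p of 0.05; in fat 22 of 27 values lie below 0, and without mouse 138 24 of 27 do.

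In fat the question was whether sterol genes differ in a tissue that is not itself the target of the deletion. Again none of the 27 was called by edgeR, DESeq2 or limma voom, where edgeR called 0% of the 16323 genes tested higher and 0.00613% lower. Adjusted p-values by edgeR ranged from 0.618 to 0.997. Most values were negative, since 22 of the 27 log2 fold changes lay below 0, as did 52.1% of those of all genes tested. The median was -0.23 over the 27 genes, -0.26 over the 18 enzymes and -0.01 over all genes. At an unadjusted p under 0.05 there was 1 gene, Sqle, where 7.99% of all genes passed that mark.

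Without mouse 138 the direction was the same and none was called, where edgeR called 0.00603% of 16579 genes higher and 0.0302% lower. Log2 fold changes lay below 0 for 24 of the 27, as for 48.4% of all genes, with a median of -0.33 over the 27 and 0.01 over all genes. Adjusted p-values ranged from 0.246 to 0.904 by edgeR, and 3 genes, Pmvk, Fdps and Mvk, had an unadjusted p under 0.05, as had 16.6% of all genes. With mouse 138 kept and control mouse 131 left out, the direction was lost, with 12 of the 27 below 0 and 15 above and a median of 0.02, where 51.5% of all genes lay below 0. Without both mice 20 lay below and 7 above, with a median of -0.11, where 48% of all genes lay below 0.

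Sqle had 14.1, 10.3, 9.53 and 13.1 CPM in knockout fat, against 22.6, 12.4, 25.6 and 12.9 CPM in control fat. The groups overlapped, with control mice 131 and 138 above the other 6 libraries. Its log2 fold change was -0.65 (SE 0.270, edgeR adjusted p 0.618) and -0.44 without mouse 138 (adjusted p 0.399). Srebf2 had 20.7, 17.0, 17.3 and 18.2 CPM in knockout fat, against 22.2, 20.6, 38.3 and 19.8 CPM in control fat, with 3 knockout libraries below all controls. Knockout over control, its log2 fold change was -0.47 (SE 0.219) and, without mouse 138, -0.19 (SE 0.0896), with edgeR adjusted p-values of 0.627 and 0.325. Hsd17b7 had 10.6, 7.88, 7.46 and 10.4 CPM in knockout fat, against 17.0, 11.5, 12.1 and 9.51 CPM in control fat, where the control of mouse 11 lay among the knockouts. It gave -0.46 (SE 0.203), and -0.48 without mouse 138.

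Fdps had 12.4, 7.02, 8.90 and 12.4 CPM in knockout fat, against 21.4, 12.3, 11.0 and 13.8 CPM in control fat, and 2 knockout libraries lay below all controls. Its log2 fold change was -0.52 (SE 0.258) and -0.64 without mouse 138, with edgeR adjusted p-values of 0.627 and 0.277. Pmvk had 38.9, 29.9, 35.0 and 32.5 CPM in knockout fat, against 68.2, 37.3, 10.1 and 44.0 CPM in control fat, so that the controls enclosed the knockouts. Without mouse 138, 3 of 4 knockout libraries lay below all controls, and the log2 fold change was -0.55 (SE 0.201, edgeR adjusted p 0.246), against -0.23 (SE 0.456) with it. Mvk had 15.1, 10.4, 9.80 and 13.8 CPM in knockout fat, against 16, 15.7, 6.59 and 15.0 CPM in control fat, where mouse 138 alone lay below the knockouts. Knockout over control, its log2 fold change was -0.12 (SE 0.282), and -0.34 (SE 0.150, edgeR adjusted p 0.298) without that mouse.

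Ggps1 was the 1 gene of the 27 whose knockout libraries all lay below the controls in fat, as in 3.01% of all genes tested, or 8.44% without mouse 138. It had 35.9, 35.5, 33.2 and 30.3 CPM in knockout fat, against 36.5, 36.0, 37.0 and 37.7 CPM in control fat. The difference was small, a log2 fold change of -0.13 (SE 0.0758, edgeR adjusted p 0.657). Its exact permutation p of 0.0286 is the smallest that 4 against 4 mice can give. Without mouse 138 the log2 fold change was -0.12 (SE 0.0744, edgeR adjusted p 0.439), with an exact permutation p of 0.114. None of the 27 had all knockout libraries above the controls, as 3.31% of all genes had with mouse 138 and 7.48% without it. Of the 5 genes with a log2 fold change above 0 in fat, Fdft1 and Abca1 had the largest. Insig2, Stard4 and Ebp had 0.13, 0.12 and 0.01. Mylip, at -0.08 with mouse 138, was at 0.16 without it. Fdft1 had 41.9, 42.9, 47.2 and 29.6 CPM in knockout fat, against 37.5, 33.8, 20.1 and 31.7 CPM in control fat, with 3 knockouts above all controls. Abca1 had 702, 594, 710 and 609 CPM in knockout fat, against 548, 603, 361 and 655 CPM in control fat, with 2 knockouts above all controls. Their log2 fold changes were 0.39 (SE 0.207, edgeR adjusted p 0.632) and 0.27 (SE 0.211, adjusted p 0.714), and 0.24 and 0.12 without mouse 138.

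Levels of the remaining enzymes in fat overlapped between the genotypes. Hmgcs1 averaged 143 ± 34.5 CPM in knockout and 171 ± 73.1 CPM in control fat, and Nsdhl 39.9 ± 10.4 CPM in knockout and 47.9 ± 29.5 CPM in control fat (SD, n = 4 each). Lss averaged 46.6 ± 11.6 CPM in knockout and 64.9 ± 35.2 CPM in control fat, and Insig1 157 ± 86.2 CPM in knockout and 200 ± 168 CPM in control fat (SD, n = 4 each). Without mouse 138 the control means of Hmgcs1, Nsdhl, Lss and Insig1 were 195, 60.3, 76.2 and 255 CPM (n = 3). Their log2 fold changes were then -0.44, -0.60, -0.71 and -0.71, against -0.26, -0.26, -0.48 and -0.36 with that library. Those of Lss (SE 0.318) and Insig1 (SE 0.558) were the largest in size of the 27. For Nsdhl, Lss and Insig1, 3 of 4 knockout libraries lay below all controls, and for Hmgcs1 1 did. The groups still overlapped, and none passed. With mouse 138 among them, controls varied more than knockouts. The median coefficient of variation over the 27 genes was 19.8% in knockout fat and 36.6% in control fat. That median was not taken for controls without mouse 138, so the sentence holds only with that library. Cell division markers, 5 genes, summed to 15.2 to 26.0 CPM in knockout and 29.4 to 53.3 CPM in control fat without overlap, but none was called, with edgeR adjusted p-values of 0.588 to 0.656. The sum of the 7 macrophage markers was 317 to 602 CPM in knockout and 344 to 627 CPM in control fat, or 470 to 627 CPM without mouse 138. All 7 had a log2 fold change below 0 with and without that mouse, with medians of -0.207 and -0.358. None was called, with edgeR adjusted p-values of 0.67 to 0.943 with it and 0.348 to 0.741 without it. The part of these cells in the sign of the sterol genes was not tested.

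Whether the genotype difference in muscle differed from that in fat was tested as an interaction over the 16 libraries, with the fat difference subtracted from the muscle difference. None of the 27 was called by edgeR, DESeq2 or limma voom, and edgeR called 0% of the 17084 genes in either direction. The smallest edgeR adjusted p was 0.653. Values lay above 0 for 24 of the 27, where 45.6% of all genes lay below 0. The median was 0.33, against 0.03 over all genes tested. With the mouse as replicate block the median was 0.17. It was 0.04 without mouse 131 and 0.49 without mouse 138. At an unadjusted p under 0.05 there were 3 genes, as there were 7.19% of all genes. These were Sqle at 1.27 (SE 0.459), Srebf2 at 0.72 (SE 0.264) and Abcg1 at 0.63 (SE 0.216), each with an edgeR adjusted p of 0.653. Without mouse 138 they were 0.907 for Sqle, 0.491 for Srebf2 and 0.761 for Abcg1. All 3 had a positive log2 fold change in muscle and a negative one in fat. Picking genes by a large positive interaction favours such signs, so the signs add nothing to it.

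Lists of other genes around the route gave no call in either tissue by genotype. In the tissue comparison, edgeR called 2 of 14 fatty acid and acetyl-CoA genes higher in muscle and 12 lower, with a median log2 fold change of -3.51. Of 14 other genes of SREBP processing and sterol-regulated degradation 6 were higher and 8 lower, and of 17 other LXR, efflux and esterification genes 5 were higher and 11 lower. Of 15 other isoprenoid genes tested 8 were higher and 6 lower, and of 15 sterol transfer genes 3 were higher and 9 lower. A last list of 8 held the SREBP-2 targets Fabp5, Pnpla5, Aacs and Rdh11. It also held Nfya, Nfyb and Nfyc, which encode NF-Y, and the factor gene Sp1. In it 2 were higher, Nfyb and Nfyc, and 6 lower. Over all genes tested 35.7% were called higher and 44% lower in muscle. By genotype in fat, 14 of 15 other isoprenoid genes lay below 0, with and without mouse 138. Of the sterol transfer genes 9 of 15 did, and 13 of 15 without it. Other LXR, efflux and esterification genes had 9 of 17 and 14 of 17. Fatty acid and acetyl-CoA genes had 6 of 14 and 10 of 14. SREBP processing genes had 9 of 14 and 7 of 14, and the last list 3 of 7 and 4 of 8. All genes had 52.1% and 48.4% below 0. The differences between these lists and all genes were not tested.

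By genotype in muscle, the smallest p of these lists belonged to Pltp, the phospholipid transfer protein, and Scarb1, a receptor for high-density lipoprotein. Pltp gave 0.39 (SE 0.124, edgeR adjusted p 0.907) and Scarb1 0.36 (SE 0.149, edgeR adjusted p 0.949). In fat it was Osbpl5, a sterol transfer protein of membrane contact sites, at -0.46 (SE 0.0953, edgeR adjusted p 0.588), and -0.39 (SE 0.0776, adjusted p 0.14) without mouse 138. Erlin2, a scaffold of sterol-regulated degradation, gave -0.21 (SE 0.0742, edgeR adjusted p 0.591). Without mouse 138, Ube2g2, a ubiquitin-conjugating enzyme of that degradation, gave -0.46 (SE 0.0632, edgeR adjusted p 0.061), and the lipid-binding protein Fabp5 gave -0.71 (SE 0.141, edgeR adjusted p 0.14). None of these passed.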

How the data were processed

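The table that the authors deposited holds unscaled read counts of 55536 Ensembl genes in 16 libraries. Stranded libraries were made from total RNA after removal of ribosomal RNA, per the labels' protocols. STAR 2.7.0f, featureCounts 1.6.3, DESeq2 1.22.2 and the build GRCm38 stand in the submitters' processing notes with no role stated. The sources used here do not give the strand setting, the annotation release or how reads with several matches were treated. Every identifier had an entry in GENCODE M21, and each column was matched to 1 sample by name.

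For each tissue, knockout and control libraries were compared by edgeR 4.0.16 under R 4.3.3, using its quasi-likelihood F test (TMM scaling, filterByExpr, robust estimation, Benjamini-Hochberg adjustment over all genes tested, call at an adjusted p under 0.05). The tissue difference and the interaction were contrasts of 1 fit of all 16 libraries. Standard errors come from the ratio of the size of a log2 fold change to the root of its F. CPM uses the TMM-scaled library total over all 16 libraries, and FPKM divides CPM by merged exon length in kilobases. Exact two-sided permutation tests used log2(CPM + 0.5). Promoter windows came from RefSeq on GRCm38.p6. The procedure was tested on simulated data.

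The 27 genes, the other lists and the marker lists were chosen with earlier results of these data known. The rule for named genes was values in every library for genes called, for the 4 smallest p in each genotype comparison, for the 3 largest tissue differences in each direction and for Srebf2, Insig1 and Abca1. Groups of 8 libraries in the tissue comparison are given as lowest, median and highest instead. Ggps1 in fat, Dhcr7 as the gene without overlap and Fdft1 in fat were named after their values were seen. From each other list at most 3 genes with the smallest p could be named. Muscle and fat libraries with the same subject number come from the same mouse by the labels. Their deviations from the group means correlated at -0.02 to 0.04 in controls and 0.10 to 0.17 in knockouts across 17084 genes. Libraries within each group differed by more than counting noise in chi-square comparisons, and each counts as 1 sample. Alternatives were other scalings and filters, DESeq2 1.42.0, limma 3.58.1 voom, non-robust estimation, a fit shared by both tissues, a replicate block of mouse number and the omission of each mouse. Those leaving out a pair of mice, and the interaction without mouse 138 with DESeq2, were chosen after seeing the data. Reads were counted without molecular identifiers, so low counts carry counting error beyond the spread between mice.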

Additional observations from a re-analysis of the deposited data

Results flagged for a closer look

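In 9 of 108 groups of 4 libraries, 1 per gene and group, 1 library lay far from the other 3. By chance about 5% would do so if all groups were independent. Genes here share libraries and varied together in fat, so that rate is no fair measure for the 9. In fat, control mouse 138 was far below for Mvk, at 6.59 CPM against 15.0 to 16 CPM in the other controls. The same library was far above for Srebf2, at 38.3 CPM against 19.8 to 22.2 CPM, and for Scap, at 44.6 CPM against 28.7 to 30.9 CPM. Its marker sums are given with the fat results. Knockout mouse 139 had 52.4 CPM of Cyp51 in fat, against 31.1 to 34.0 CPM in the other knockouts. Control mouse 137 had 34.1 CPM of Abcg1 in fat, against 25.1 to 25.4 CPM in the other controls.

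In muscle, knockout mouse 139 had 40.0 CPM of Ggps1, against 28.8 to 30.1 CPM in the other knockouts. Control mouse 131 had 23.9 CPM of Insig1, against 15.1 to 16.1 CPM, and 3.75 CPM of Nsdhl, against 4.73 to 4.84 CPM in the other controls. Control mouse 11 had 48.2 CPM of Insig2, against 36.6 to 37.8 CPM in the other controls. No cause was tested for any of these.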

How the results depend on the processing

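None of the 27 genes was called by genotype or in the interaction under any alternative run, DESeq2 and limma voom included. Leaving out 1 library at a time, the median log2 fold change of the 27 stayed within -0.00175 to 0.0796 in muscle and -0.342 to 0.0235 in fat. Leaving out 1 mouse at a time, that of the interaction stayed within 0.0405 to 0.491. With total counts only, the median in muscle was 0.146, against 0.0763 over all genes, and Insig1 and Abca1 in muscle turned to 0.0438 and 0.0569. Without 1 library they lay within -0.105 to 0.129 for Insig1 and -0.0859 to 0.0341 for Abca1, turning positive without control mouse 131 or knockout mouse 958, and they were 0.147 and 0.0444 without mice 131 and 11. In fat, Pmvk and Insig1 turned to 0.0558 and 0.00247 with limma voom. Without 1 library they lay within -0.548 to 0.154 for Pmvk and -0.787 to 0.346 for Insig1, both positive without control mouse 131.

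In the tissue comparison the 22 calls lower ranged from 21 to 22 and the 3 calls higher from 2 to 3 over the fits without 1 mouse, with medians of -1.79 to -1.47. Upper-quartile scaling left 1 gene called higher, and total counts left 0, with a median of -2.86. Hsd17b7 turned to -0.055 with upper-quartile scaling, -1.16 with total counts, and -0.0334 without a filter, and lay within -0.0126 to 0.132 without 1 mouse, negative without mouse 11 or 960. With total counts Fdft1, Insig2 and Mylip turned to -0.201, -0.871 and -0.846. Ggps1 passed with upper-quartile scaling, total counts and no filter, and Insig2 did not pass with upper-quartile scaling or no filter. The cause was not tested in any of these. With the mouse as replicate block there were again 22 lower and 3 higher calls, with a median of -1.62, and the block changed no call of the interaction.

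Over all genes, DESeq2 called 2 higher and 7 lower in muscle, against 0 and 2 by edgeR, and 51 and 29 passed edgeR with no filter. In fat DESeq2 called 33 higher and 39 lower, against 0 and 1 by edgeR, and 134 and 196 without mouse 138, against 1 and 5. In fat 1 fit of all libraries called 4 higher and 2 lower. In the interaction DESeq2 called 4 higher and 3 lower, and 59 and 30 without mouse 138, against 0 and 0 by edgeR. Low levels limit what Sqle, Idi1 and Abcg1 in muscle can show.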
